A study of Mus musculus with 15 samples.

Results

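Whole-transcript microarrays measured small nucleolar RNA (snoRNA) genes in the mouse macrophage line RAW264.7. Members were the probe sets that the platform's gene table ties to exactly 1 gene symbol beginning with Snord or Snora, with the probe set of the highest mean over all arrays kept for each gene. This gave 73 of the 22180 genes with such a probe set: 47 box C/D genes (Snord) and 26 H/ACA genes (Snora). A further 43 probe sets list a snoRNA symbol together with other symbols, and were not used because their signal cannot be assigned to a single gene. The imprinted, neuron-active Snord115 and Snord116 clusters had 0 probe sets with a single symbol.

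The 15 arrays fall into 5 groups of 3. Cells without LPS received PBS and the vehicle, 0.1% ethanol. A preincubation of 30 min is given for all 5 groups. After it the other 4 groups were stimulated with 1.0 µg/mL lipopolysaccharide (LPS), the bacterial cell wall component that activates macrophages. They received vehicle, 5.0 µM 13-HDHEA, 5.0 µM 16-HDHEA, or 2.5 µM of each compound together. All cells were harvested after 24 h, and all groups carried the same ethanol concentration. 13-HDHEA and 16-HDHEA are docosahexaenoyl ethanolamides, lipids of the endocannabinoid family, with a hydroxyl group at a different carbon. Each replicate number carries its own experiment identifier in the labels, so that experiments 1, 2 and 3 each hold 1 array of every group. All arrays come from a single tumour-derived line, and the labels do not say whether the 3 experiments used separate thaws or passages.

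Box C/D snoRNAs guide 2'-O-methylation of ribosomal and spliceosomal RNA and are bound by fibrillarin, Nop56, Nop58 and Snu13. H/ACA snoRNAs guide pseudouridylation and are bound by dyskerin (Dkc1), Nhp2, Nop10 and Gar1. Some snoRNAs, among them U3 (Rnu3a, not a member by its symbol), U8 (Snord118), U13 (Snord13), U22 (Snord22) and U17 (Snora73a and Snora73b), act on the ribosomal RNA precursor without guiding methylation or pseudouridylation. Most mammalian snoRNAs have no promoter of their own: they lie in introns of a host gene and are released from the spliced intron by trimming. Many host genes encode ribosomal or nucleolar proteins, and others, named Snhg, have no known product other than the snoRNA. Such hosts often begin transcription at a C followed by a run of pyrimidines, the 5' terminal oligopyrimidine motif.

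By gene spans in RefSeq (GRCm38.p6), 50 of the 73 genes lay inside protein-coding genes and 15 inside long noncoding genes. A further 5 lay inside genes of both kinds and 3 (Snord13, Snord89 and Snord118) inside none. The RefSeq table of promoters held 47 hosts of tested members. Among them 17 (36.2%) had a C within 5 bases of the annotated start, followed without a break by at least 4 bases that were C or T, on the strand of the gene. The same search found the run in 21.2% of the 27025 genes of that table. On the opposite strand it found 17.0% of the hosts and 24.4% of all genes. The 60 bases around the annotated start (20 before it and 40 from it) are shown for some hosts of members described below. They are examples, and how many are shown with the run does not give its share among hosts. Each reads 5' to 3' on the strand of the gene, with the C and its pyrimidine run in capitals.
Snhg12, chr4:132308658-132308717, plus strand, host of Snora16a, Snora44, Snora61 and Snord99: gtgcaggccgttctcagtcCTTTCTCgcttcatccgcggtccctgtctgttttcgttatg
2410006H16Rik, chr11:62602857-62602916, plus strand, host of Snord49a, Snord49b and Snord65: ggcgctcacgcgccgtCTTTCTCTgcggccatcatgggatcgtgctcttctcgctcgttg
Ipo7, chr7:110018295-110018354, plus strand, host of Snora23: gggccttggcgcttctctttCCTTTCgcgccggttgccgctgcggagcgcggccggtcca
Snhg3, chr4:132353647-132353706, minus strand, host of Snora73a and Snora73b: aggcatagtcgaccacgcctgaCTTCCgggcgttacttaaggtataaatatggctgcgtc
Cct6a, chr5:129787336-129787395, plus strand, host of Snora15: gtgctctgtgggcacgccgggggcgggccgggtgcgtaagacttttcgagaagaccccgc
Snx5, chr2:144270533-144270592, minus strand, host of Snord17: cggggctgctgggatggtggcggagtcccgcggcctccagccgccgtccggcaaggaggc
Cct6a, a subunit of the cytosolic chaperonin, and Snx5, a sorting nexin, are shown as hosts without a match in this window, which says only that these letters are not at the annotated start. Among the 13 hosts in the table whose snoRNA differed between experiments, 4 (30.8%) held the run, and the same number, 4 (30.8%), held it on the opposite strand.

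The deposited values are log2 expression after RMA, with array medians from 3.62 to 3.69. A gene was tested where its value passed the 40th percentile of the array (3.16 to 3.22) on at least 3 arrays, which kept 15468 genes. Of the 73 snoRNA genes 72 were tested, 46 box C/D and 26 H/ACA. Tests were moderated linear models (limma) with Benjamini-Hochberg adjustment over all 15468 genes, and a call is an adjusted p under 0.05. All 9 macrophage markers passed the filter, and with LPS 3 rose, 1 fell and 5 were not called (list median -0.09). Among them Adgre1 (F4/80) averaged 6.04 without LPS and 10.54 with LPS (n = 3), and was the 1 macrophage marker called between experiments, higher by 0.35 in experiment 3. Of the markers fixed for other cell types, 3 of 6 lymphocyte, 1 of 7 fibroblast and 3 of 8 neuron genes with a probe set did not pass the filter, while all 7 epithelial and endothelial genes did. Of those that passed, Cd4 fell by 0.47 and Pdgfra and the endothelial gene Cdh5 rose by 0.96 and 0.42 with LPS. No gene of these other lists was called between experiments, and the part of any marker in the snoRNA results was not tested.

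Most snoRNA genes were bright. Among H/ACA genes Snora33, which lies in the ribosomal protein gene Rps12, had the highest mean, 11.97 (11.57 to 12.20 over the 15 arrays), followed by Snora21, Snora61, Snora44 and Snora23 with means from 8.48 to 8.78. Among box C/D genes Snord82, in an intron of nucleolin (Ncl), averaged 11.46 (10.81 to 11.75). Snord13, Snord47, Snord99 and Snord110 averaged 10.80 to 11.33. A second probe set of Snora33 averaged 4.64, and differed by 0.88 between experiments 3 and 1 where the kept probe set differed by 0.32. Such means rank probe sets, not molecules, since probes differ in how they bind. At the dim end, Snord90 (mean 2.46) passed the 40th percentile on 0 of 15 arrays and was not tested. Snord85 averaged 3.42, just above the percentile. Snora19 averaged 4.11, and its 2 probe sets hold identical values. Exactly equal values on several arrays also occur within a probe set: 12 of 72 members (16.7%) repeat a value on at least 2 arrays, as do 34.0% of all tested genes. Snora35, in the serotonin receptor gene Htr2c, averaged 3.04 and passed on 3 arrays only, 1 without LPS and 2 with LPS and vehicle, and on 0 of the 9 arrays with a compound. It therefore entered the tests through the groups where it was higher, and its differences from LPS with vehicle are given as values only.

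SnoRNA genes varied between arrays of the same group more than most genes did. The median within-group SD was 0.38 for box C/D and 0.46 for H/ACA genes on the log2 scale, against 0.16 over all tested genes. Of the 72 members 71 lay above the median SD of all genes and 55 above its 90th percentile. The deviations were shared: on the first array of the combined treatment, 45 of 46 box C/D and 22 of 26 H/ACA genes lay below their group mean. On the second array of that treatment 41 and 22 lay above it. The median deviation of box C/D genes from the group mean was -0.36, 0.05 and 0.30 in experiments 1, 2 and 3 without LPS. It was -0.02, -0.21 and 0.23 with LPS and vehicle, and -0.26, -0.00 and 0.31 with 16-HDHEA. With 13-HDHEA it was -0.00, -0.38 and 0.35, and with both compounds -0.53, 0.38 and 0.12. Experiment 3 had the highest median in 4 of the 5 groups, and the combined treatment was the exception. For H/ACA genes experiment 3 was highest in all 5 groups. The medians of all tested genes stayed within 0.01 of the group mean on every array. RMA gives all arrays 1 distribution of values, so this was largely set by the processing.

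**Figure D1:**
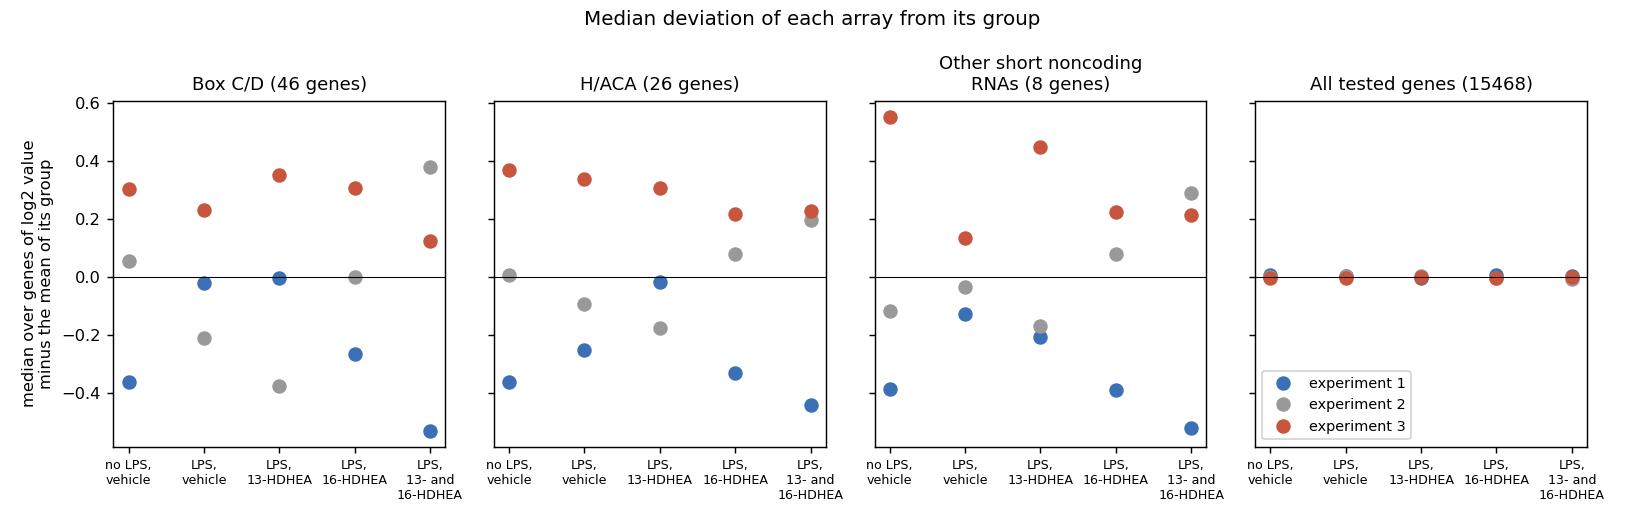
Median over genes of the log2 value minus the mean of its group, 1 point for each array, coloured by experiment, for box C/D genes, H/ACA genes, 8 other short noncoding RNAs and all tested genes. Points of the 3 short RNA sets spread from about -0.5 to 0.5 with experiment 3 mostly on top, while those of all tested genes lie on the zero line.

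Few snoRNA genes were called with LPS, in either direction. In the comparison of LPS with vehicle against no LPS, 0 of the 72 members were called by limma, against a background of 29.8% (4616 of 15468 genes), and 2 had an unadjusted p under 0.05 against a background of 37.8%. The median log2 difference was -0.03 for box C/D genes (-0.53 to 0.65) and 0.04 for H/ACA genes (-0.50 to 0.47), beside 0.00 over all genes tested. The median half-width of the 95% interval was 0.60 for members and 0.27 for all genes, or 0.45 and 0.24 with the experiment as a block. By class it was 0.59 for box C/D and 0.71 for H/ACA genes without the block, and 0.47 and 0.43 with it. Intervals in the text for treatments are those without the block. Small changes were thus less detectable in a snoRNA than in most genes. Of the 72 members 18 (25%) differed in the same direction in all 3 experiments, against 58.5% of all genes. The classes were unlike: 6 of 46 box C/D (13.0%) and 12 of 26 H/ACA genes (46.2%), of which 6 were higher and 6 lower. The median size of the difference, whatever its sign, was 0.07 for box C/D and 0.25 for H/ACA genes, beside 0.20 over all genes.

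With the experiment as a block, 2 of 72 members were called, against 34.3% of all genes, and 5 had an unadjusted p under 0.05 (background 41.6%). Snord89, a box C/D gene outside any annotated host, rose with LPS. Its values were 7.32, 7.68 and 8.40 without LPS in experiments 1, 2 and 3, and 8.31, 8.27 and 8.78 with LPS and vehicle. It was higher with LPS in every experiment, although the highest value without LPS passed the lowest with LPS. The difference was 0.65 (SE 0.25), 1.57-fold. Its limma adjusted p was 0.0621 without the block and 0.00483 with it. Its means were 8.44, 8.41 and 8.37 with 13-HDHEA, 16-HDHEA and both, beside 8.45 with LPS and vehicle.

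Snord43, in an intron of the ribosomal protein gene Rpl3, was the other call and fell. Its values were 7.37, 7.52 and 7.38 without LPS and 6.73, 6.93 and 7.28 with LPS and vehicle, so that the groups did not overlap. The difference was -0.45 (SE 0.20), 1.36-fold lower, with a limma adjusted p of 0.106 without the block and 0.0179 with it. In experiment 3 it was only -0.11. Rpl3 itself differed by -0.13 (limma adjusted p = 0.293), and Snord83b, which shares the host, by -0.03. In the H/ACA class the smallest p-values belonged to Snora7a, in Rpl32, at -0.27 (95% interval -0.55 to 0.02) and Snora75, in Ncl, at 0.46 (-0.08 to 0.99). Neither was called with or without the block.

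**Figure D2:**
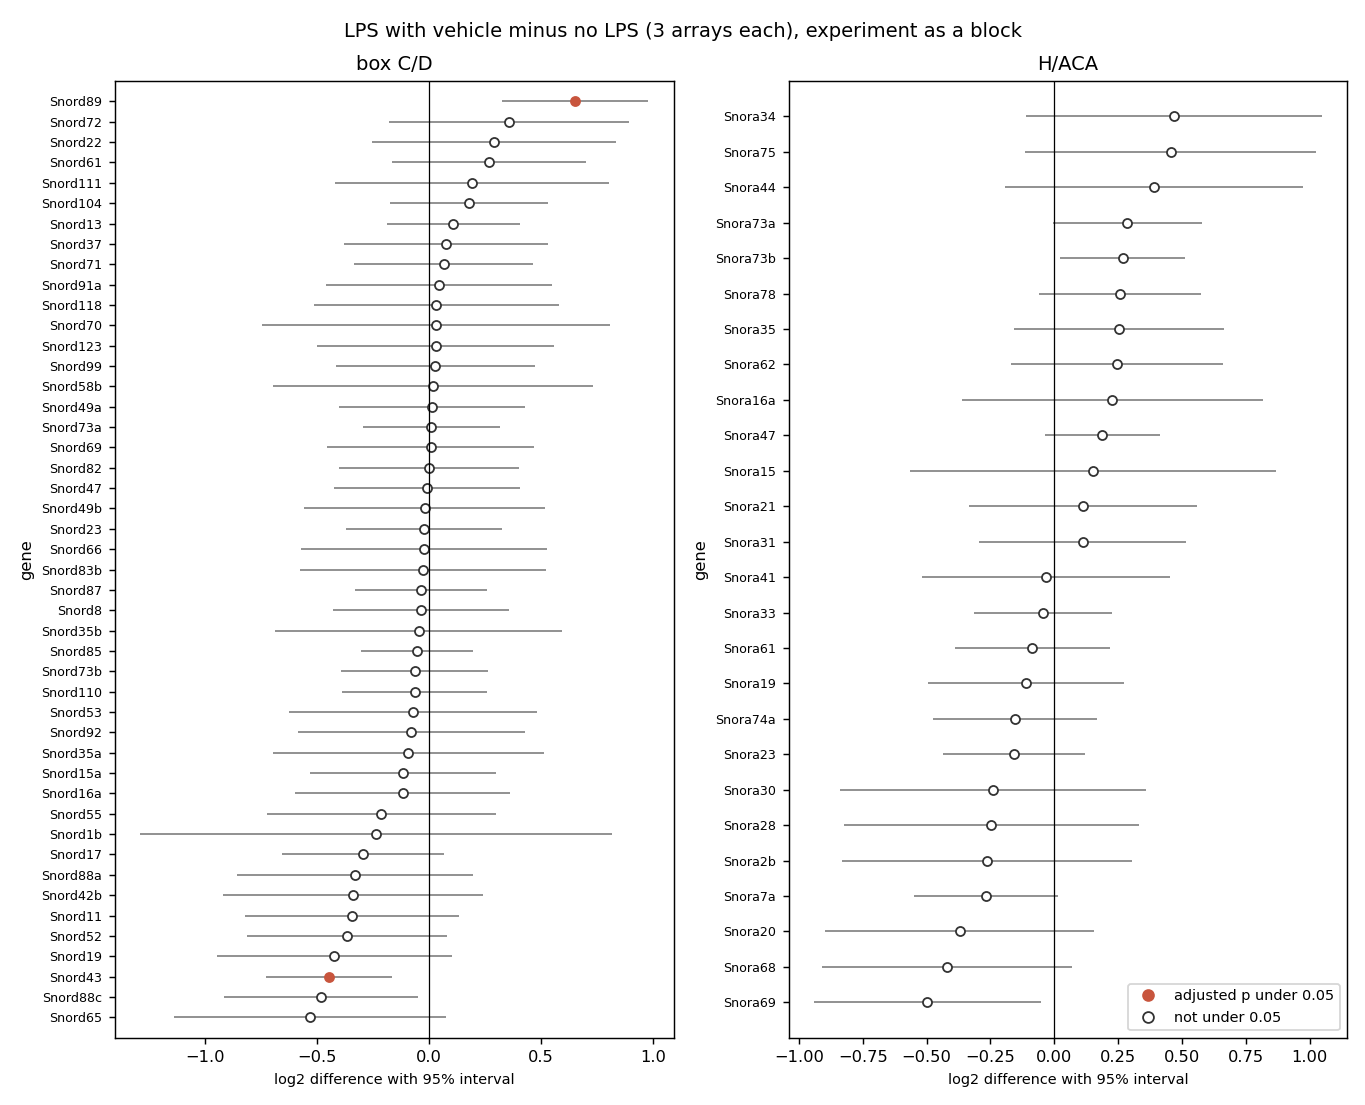
Log2 difference between LPS with vehicle and no LPS for each of the 72 tested snoRNA genes (points), with 95% intervals from the fit that holds the experiment as a block, box C/D left and H/ACA right. Filled points are Snord89 (0.65) and Snord43 (-0.45), the genes with an adjusted p under 0.05 in that fit, and the other intervals mostly span zero.

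Over 6 lists of genes for proteins that bind, assemble, release or work with snoRNAs, 19 of 79 tested genes (24.1%) were called with LPS, against 29.8% of all genes. Of 4 H/ACA core proteins 2 fell: Dkc1, the pseudouridine synthase, by 0.53 (limma adjusted p = 6.2e-05) and Nop10 by 0.26 (0.0301). Of the 3 measured box C/D core proteins 0 were called, with differences of -0.17 for Nop58, -0.14 for Snu13 and -0.08 for Nop56 (1 of the 3, Nop58, at an unadjusted p under 0.05 in limma). Of 16 factors for snoRNP assembly and transport 1 was called, Pih1d1, which fell by 0.61. Of 19 enzymes that release, trim or degrade snoRNA precursors, 7 fell and 1 rose (42.1% called, beside the 29.8%). The exosome subunit Exosc8 fell by 0.98, the intron lariat debranching enzyme Dbr1 by 0.74 and the exosome adaptor Zcchc8 by 0.73, while its partner Rbm7 rose by 0.43. Of 22 proteins of the small subunit processome, which assembles on U3, 4 rose and 0 fell (18.2%), among them the U3-binding protein Rrp9 by 0.60 and Nop14 by 0.41. U3 itself, a box C/D snoRNA measured under the symbol Rnu3a, rose by 0.46 (limma adjusted p = 0.0458), but was not called with the block (0.058). Of 15 RNA polymerase I genes 3 rose, Polr1b by 0.54 among them, and 1 fell, the transcription factor Ubtf by 0.70 (26.7%).

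No HDHEA treatment gave a called snoRNA gene. With 13-HDHEA against LPS with vehicle, 0 of 72 members were called by limma (background 0.00646%, 1 gene), and 3 had an unadjusted p under 0.05 (background 4.27%). With 16-HDHEA 0 were called (background 0%) and 3 had an unadjusted p under 0.05 (2.97%). With both compounds 0 were called (background 0%) and 2 had such a p (3.48%). For the mean of the 3 treated groups 0 were called (background 0%) and 2 had such a p (3.79%). Snora35 is among the members under 0.05 in all 4 of these, and owes its place in the test to the arrays without compounds. With the block the counts were again 0 in all 4, with 1, 1, 3 and 2 members at an unadjusted p under 0.05 (backgrounds 6.23%, 4.43%, 5.11% and 5.72%). The same direction in all 3 experiments was seen for 15 members with 13-HDHEA (background 27.5%), 14 with 16-HDHEA (26.0%), 8 with both compounds (23.4%) and 15 for their mean (25.7%). All treated groups were set against the same 3 arrays of LPS with vehicle, so that these comparisons are not independent.

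The median differences of all members were 0.03 with 13-HDHEA, 0.07 with 16-HDHEA and 0.01 with both compounds, beside -0.01, -0.00 and -0.00 over all genes tested. For box C/D genes they were 0.06, 0.10 and 0.01, with 29, 37 and 25 of 46 positive (46.3%, 49.7% and 48.5% of all genes). For H/ACA genes they were -0.06, 0.00 and 0.01, with 10, 13 and 14 of 26 positive. By experiment the box C/D median with 16-HDHEA was -0.14, 0.25 and 0.17. Members shared their deviations on an array, so these counts are descriptions only. Snord118, the U8 RNA needed for 5.8S and 28S ribosomal RNA processing, was 5.22, 5.34 and 5.62 with LPS and vehicle and 4.92, 4.21 and 5.22 with 13-HDHEA. The difference was -0.61 (95% interval -1.20 to -0.02), lower in every experiment, and it was not called. The highest value with 13-HDHEA equalled the lowest with vehicle, 5.22. Snora75 differed by -0.57 with 13-HDHEA (-1.10 to -0.03) and by -0.57 with 16-HDHEA (-1.10 to -0.03). With 16-HDHEA it was higher than with vehicle in 1 of 3 experiments. Snord71, in the adaptor protein gene Ap1g1, differed by 0.30 with 13-HDHEA (-0.07 to 0.66). Snora35 differed by -0.39, -0.57 and -0.52 with 13-HDHEA, 16-HDHEA and both. With both compounds Snord19, in the nucleostemin gene Gnl3, differed by 0.46 (-0.28 to 1.20) and Snora44, in Snhg12, by -0.64 (-1.38 to 0.09). For the mean of the treated groups Snord23, in Nop53, differed by 0.26 (-0.07 to 0.59).

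The compounds were compared with each other at the matched dose of 5.0 µM, at which each was given alone. In 13-HDHEA minus 16-HDHEA, 0 of 72 members were called by limma (background 0.00646%), and 1 had an unadjusted p under 0.05 (3.10%). With the block 0 were called and 1 had such a p (4.23%), and 7 members had 1 direction in all 3 experiments (25.6%). The member with p under 0.05 without the block was Snord37, in an intron of elongation factor Eef2. Its values were 4.25, 3.58 and 4.18 with 13-HDHEA and 4.25, 4.65 and 5.00 with 16-HDHEA. In experiment 1 both compounds and the vehicle gave the same value, 4.25, which also occurs on an array without LPS. In the other experiments it was lower with 13-HDHEA. Over all 3 experiments the difference was -0.63 (95% interval -1.06 to -0.20). With both compounds at 2.5 µM it was 4.56, 4.98 and 4.51, beside 4.25, 4.14 and 4.20 with LPS and vehicle, a difference of 0.48 (0.06 to 0.91) that was not called. Snord118, Snora61 and Snora20 differed between the compounds by -0.47 (-1.06 to 0.12), 0.18 (-0.15 to 0.50) and -0.39 (-1.11 to 0.33). The median half-width of the intervals was 0.60 without the block and 0.45 with it, so differences of these sizes between the compounds are not excluded for most members.

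Larger differences among snoRNA genes lay between the experiments. In a test of the 3 experiments across all groups, 17 of 72 members were called by limma's F test, 6 box C/D and 11 H/ACA, against a background of 4.84% (749 genes). Experiment 3 exceeded experiment 1 in 67 of 72, with a median difference of 0.48 for box C/D and 0.65 for H/ACA genes, beside -0.00 over all genes tested. In all 5 groups experiment 3 was above experiment 1 for 49 of 72 members, against 8.75% of all genes. Set against experiment 1 alone, 21 members were called higher in experiment 3 (background 1.87%) and 0 lower (2.46%). Over the groups together experiment 2 lay between: 4 H/ACA and 0 box C/D genes were called above experiment 1 (background 1.05%) and 0 below it (1.22%). This order did not hold in every group. The box C/D median of experiment 2 was the lowest with LPS and vehicle and with 13-HDHEA, and the highest with both compounds. Only 2 members were called higher in experiment 3 than in experiment 2 (0.601%), Snord73b and Snora31, and 0 lower (0.763%). At an unadjusted p under 0.05 in the F test there were 48 of 72 members (23.7%).

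Of the 18 genes on the array whose experiment 3 mean was at least 2-fold that of experiment 1 (0.116% of all tested), 8 were snoRNA genes. Snora15, in Cct6a, had the largest increase from experiment 1 to 3 among all tested genes. In the order no LPS, LPS vehicle, 13-HDHEA, 16-HDHEA and combined, its values were 5.80, 5.91, 5.89, 5.85 and 5.48 in experiment 1 and 7.72, 7.58, 7.92, 7.87 and 7.31 in experiment 3. No array of experiment 1 came within 1 log2 unit of any of experiment 3. In experiment 2 the values were 6.14, 6.61, 5.78, 6.80 and 7.42. The difference between experiments 3 and 1 was 1.89 (SE 0.25), 3.71-fold, with a limma F test adjusted p of 0.00809.

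Snora69, in the ribosomal protein gene Rpl39, was 4.79, 4.41, 3.85, 4.29 and 4.89 in experiment 1 and 6.26, 5.86, 5.95, 6.04 and 5.80 in experiment 3. These did not overlap, and the difference was 1.54 (SE 0.16). Its values in experiment 2 were 6.02, 5.31, 4.79, 4.85 and 5.54, overlapping both. Snora74a, in the noncoding gene Snhg4, had the smallest p of the class. It was 5.33, 4.77, 5.25, 4.97 and 5.36 in experiment 1, 5.97, 5.94, 6.05, 6.27 and 6.22 in experiment 2, and 6.30, 6.43, 6.36, 6.02 and 6.39 in experiment 3. Here experiments 2 and 3 overlapped and both lay above experiment 1. The difference between experiments 3 and 1 was 1.17 (SE 0.11), with a limma F test adjusted p of 0.00252. Snora31, in the translationally controlled protein gene Tpt1, averaged 5.20 ± 0.11, 5.69 ± 0.19 and 6.45 ± 0.35 (SD, n = 5) in experiments 1, 2 and 3. The 5 arrays are 1 of each group, so this SD and those below include differences between treatments. Snora23, in Ipo7, averaged 8.04 ± 0.17, 8.66 ± 0.20 and 8.75 ± 0.18. The U17 RNA Snora73b averaged 7.27 ± 0.15, 7.65 ± 0.17 and 7.92 ± 0.16, and its copy in the same host, Snora73a, 6.61 ± 0.16, 7.03 ± 0.23 and 7.29 ± 0.17. The U17 copies are alike in sequence, so that probes may read both.

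Among box C/D genes Snord17, in Snx5, was 7.18, 7.26, 7.26, 7.43 and 7.30 in experiment 1 and 8.78, 8.19, 8.31, 8.40 and 8.02 in experiment 3, again with no overlap. Its values in experiment 2, 7.91, 7.54, 7.66, 7.85 and 8.15, lay above all of experiment 1 and overlapped experiment 3 only at its lowest array. The difference between experiments 3 and 1 was 1.05 (SE 0.13). Snord72, in Rpl37, averaged 7.86 ± 0.36, 8.52 ± 0.42 and 8.91 ± 0.18 (SD, n = 5) in experiments 1, 2 and 3. Snord22, the U22 RNA needed for 18S ribosomal RNA processing, averaged 9.97 ± 0.32, 10.36 ± 0.47 and 11.01 ± 0.14. Snord73b, in Rps3a1, averaged 10.09 ± 0.21, 10.12 ± 0.24 and 10.67 ± 0.09. Snord73a in the same host differed by 0.17 between experiments 3 and 1 and was not called. Snord89, which was higher with LPS, averaged 8.05 ± 0.42, 8.22 ± 0.33 and 8.61 ± 0.17. Its SD includes that difference: in experiment 1 it was 7.32 without LPS and 8.07 to 8.35 on the arrays with LPS. Snord13, the U13 RNA, was lower in experiment 3 than in experiment 1 in every group. It was 11.49, 11.69, 11.66, 11.42 and 11.57 in experiment 1 and 11.14, 11.47, 11.33, 11.08 and 11.23 in experiment 3, with 11.44, 11.22, 11.08, 11.30 and 10.81 in experiment 2. The difference was -0.32 (95% interval -0.55 to -0.09) and the F test was not called (limma adjusted p = 0.0788). Snora61 was also lower in experiment 3 in all 5 groups, by 0.20, and was not called.

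**Figure D3:**
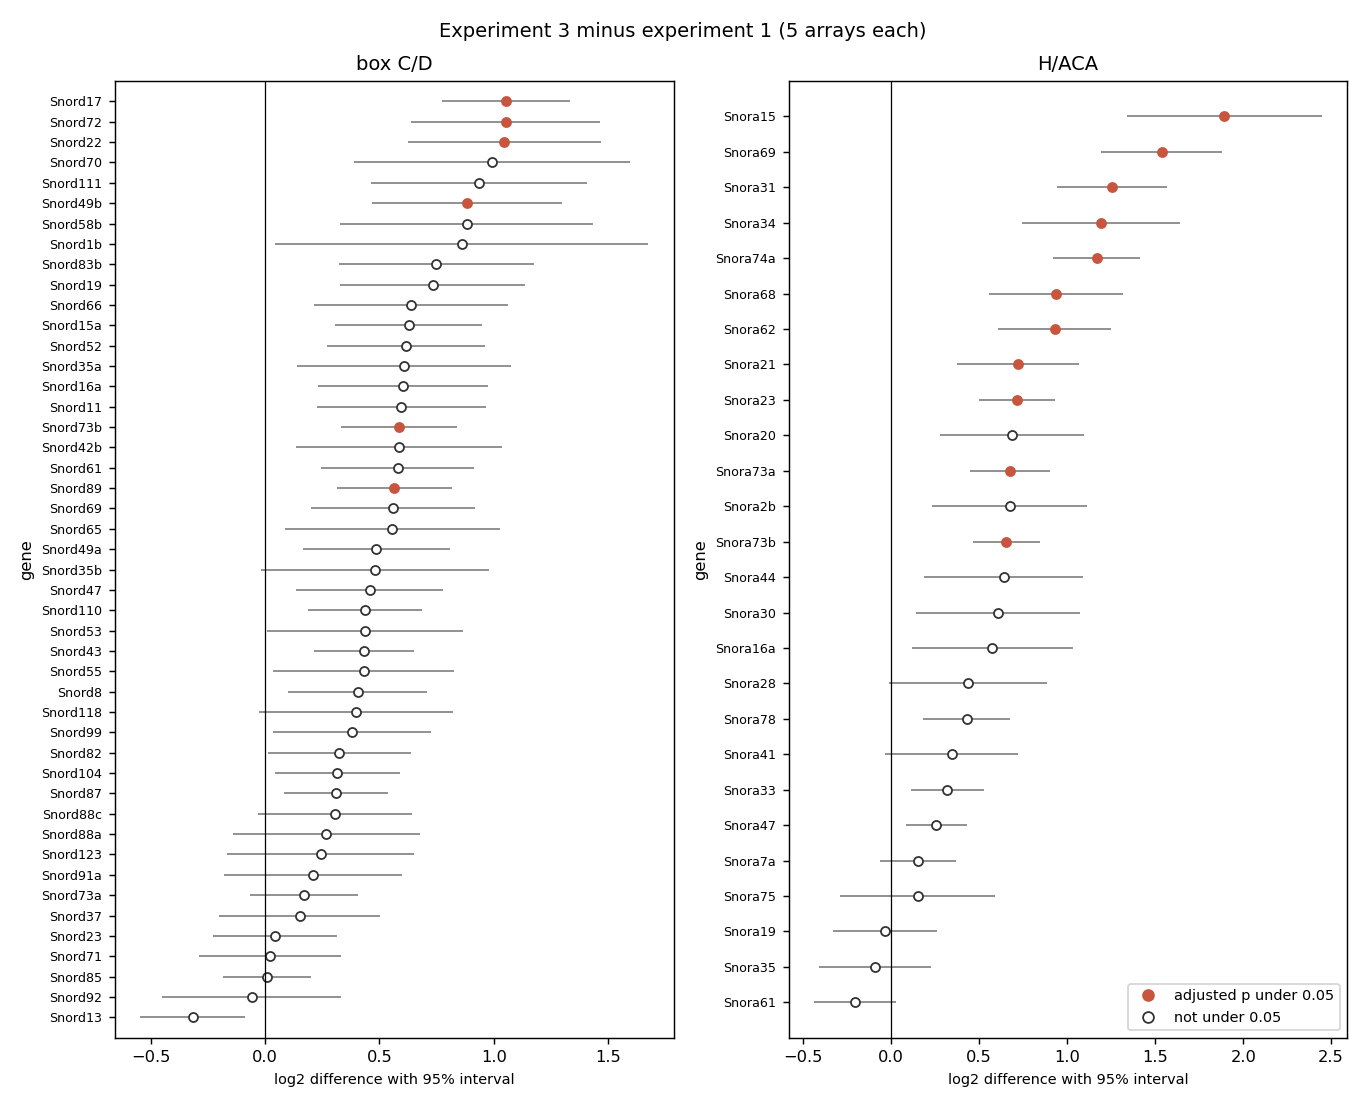
Log2 difference between experiments 3 and 1 (5 arrays each, all groups) for each tested snoRNA gene, with 95% intervals, box C/D left and H/ACA right. Filled points are the 17 genes called in the F test over the 3 experiments, and all lie right of zero, from Snord89 (0.57) to Snora15 (1.89), with Snord13 lowest at -0.32.

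The calls depend on a few arrays. Of the 17 genes, 9 were called when each of the 15 arrays was left out in turn: Snora15, Snora23, Snora31, Snora62, Snora69, Snora73a, Snora73b, Snora74a and Snord17. Arrays picked by eye as apart from others of their experiment in snoRNA medians were the second of 13-HDHEA and the first and second of the combined treatment. Without those 3, a setting chosen after seeing the data, 4 members were called (Snora15, Snora62, Snora69 and Snord17) against 0.0517% of all genes. The first array of 13-HDHEA was kept, although its H/ACA median, -0.02, also stood apart from the others of experiment 1 (-0.44 to -0.25). The number called was 9 without the third array of 13-HDHEA or the first of 16-HDHEA, and 28 without the second array of the combined treatment. It was 10 without the third array of 16-HDHEA, and 11 without the third of LPS with vehicle or the first of the combined treatment.

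**Figure D4:**
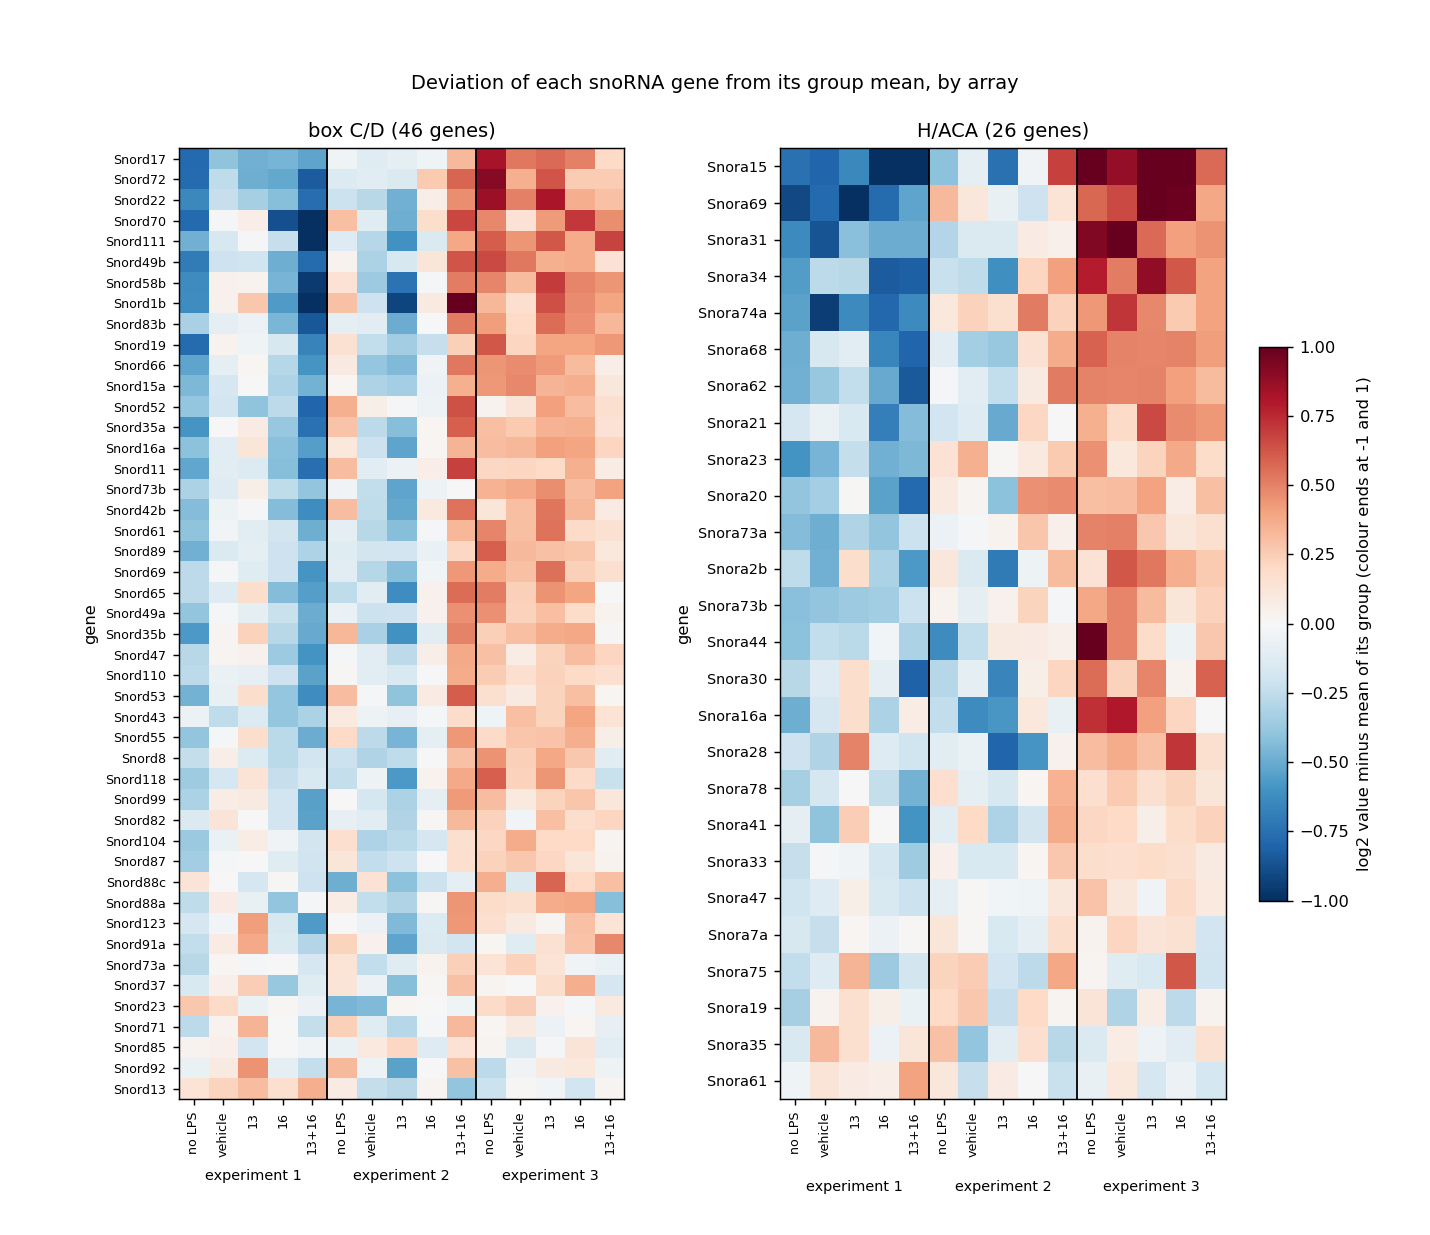
Log2 value of each tested snoRNA gene (rows, ordered by the difference between experiments 3 and 1) minus the mean of its group, on 15 arrays (columns) ordered by experiment and then by group, with red above and blue below the group mean. Columns of experiment 1 are mostly blue and of experiment 3 mostly red; the 13-HDHEA column of experiment 1 is split, with 34 members above and 38 below, and in experiment 2 the vehicle (59 of 72 below) and 13-HDHEA (64 below) columns are mostly blue and the combined column (13+16) mostly red.

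Some other short RNAs also differed between the experiments, where the F test called 4.84% of all genes. Small Cajal body RNAs, relatives of snoRNAs that guide changes of spliceosomal RNA, had a median difference of 0.63 between experiments 3 and 1 over 5 genes. Of these 5, Scarna6 (1.64) and Scarna10 (1.05) were called. Of 8 other short noncoding RNAs 5 were called (62.5%), all higher in experiment 3, with a median of 0.68 over the list. They were the Y RNAs Rny1 (0.65) and Rny3 (0.70), the RNase P RNA Rpph1 (0.92), its relative Rprl2 (0.82) and the 5S ribosomal RNA gene n-R5s136 (1.03). The minor spliceosomal RNAs U11 and U12, 7SK and U3 together had a median of -0.02, with 0 of 4 called by limma and 0 at an unadjusted p under 0.05. The 220 microRNA genes that were tested had a median of -0.00, with 5 called (2.27%), 3 of them higher in experiment 3. RNA was isolated on columns and only samples with intact ribosomal RNA bands were used, per the labels' protocols. What differed between the experiments in culture, isolation, labelling or hybridisation is not given in the sources used here, and its part in the snoRNA differences was not tested. In RNA from whole cultures, more snoRNA per cell and a different share of cells that make it cannot be told apart.

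Most host genes differed less between the experiments than the snoRNAs inside them. Among 59 pairs of a tested snoRNA and a tested host (45 hosts), the median difference between experiments 3 and 1 was 0.57 for the snoRNA and 0.04 for the host, and the snoRNA exceeded its host in 54 pairs. Of the 45 hosts 4 were called between experiments, beside 4.84% of all genes: Snhg1, Snhg3, Snhg4 and 2410002F23Rik. Across the 59 pairs the differences had a Pearson correlation of -0.03, given as a description since pairs share arrays and some share a host. Cct6a differed by 0.06 where Snora15 differed by 1.89, and Tpt1 by -0.01 where Snora31 differed by 1.25. Rpl39 differed by -0.16, Ipo7 by -0.03, Rpsa by -0.05 and Snx5 by 0.00, beside 1.54, 0.71, 0.93 and 1.05 for Snora69, Snora23, Snora62 and Snord17. The probe sets do not tell the mature snoRNA from the intron that carries it.

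Within a host, members differed. Snhg12 was 0.56 higher in experiment 3 (limma F test adjusted p = 0.0633). Of its snoRNAs Snora44 was 0.64, Snora16a 0.57 and Snord99 0.38 higher, while Snora61 was 0.20 lower. With LPS, Snhg12 differed by -0.65 (limma adjusted p = 0.0664, and 0.0097 with the block). Its snoRNAs differed by 0.39, 0.23, 0.03 and -0.09 in the same order, with none of the 4 called. The host 2410006H16Rik was 0.16 higher in experiment 3, and Snord49b, Snord65 and Snord49a 0.88, 0.56 and 0.49 higher. Of these Snord49b alone was called (limma F test adjusted p = 0.0481). Members in protein-coding hosts (49, median 0.58) and in noncoding hosts (15, median 0.62) are described by their medians only, and no difference between them was tested.

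Several noncoding hosts were higher in experiment 3. Of the 16 tested genes of a list of noncoding hosts, 7 (43.8%, against 4.84% of all genes) were called between experiments, all in that direction, with a list median of 0.27. They were Snhg1, Snhg3, Snhg4, Snhg15, Snhg17, Snhg20 and Zfas1, the last by 0.88. Of the 39 tested protein-coding hosts on the corresponding list, Eif4a1 (0.54) and Eif4a2 (0.74) were called, a share of 5.13% close to the background, and the median was 0.05. With LPS, Snhg5 fell by 0.78 (limma adjusted p = 0.0126). It was the 1 gene called of 16 (6.25%, against 29.8% of all genes). Of the 39 protein-coding hosts on the list 6 were called (15.4%): 4 fell, among them Rpl30 by 0.54 and Dkc1, and 2 rose, Hspa9 by 0.32 and Eif4g2 by 0.19. Of the 45 hosts found by span 4 fell and 0 rose with LPS, beside the 29.8% of all genes called.

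**Figure D5:**
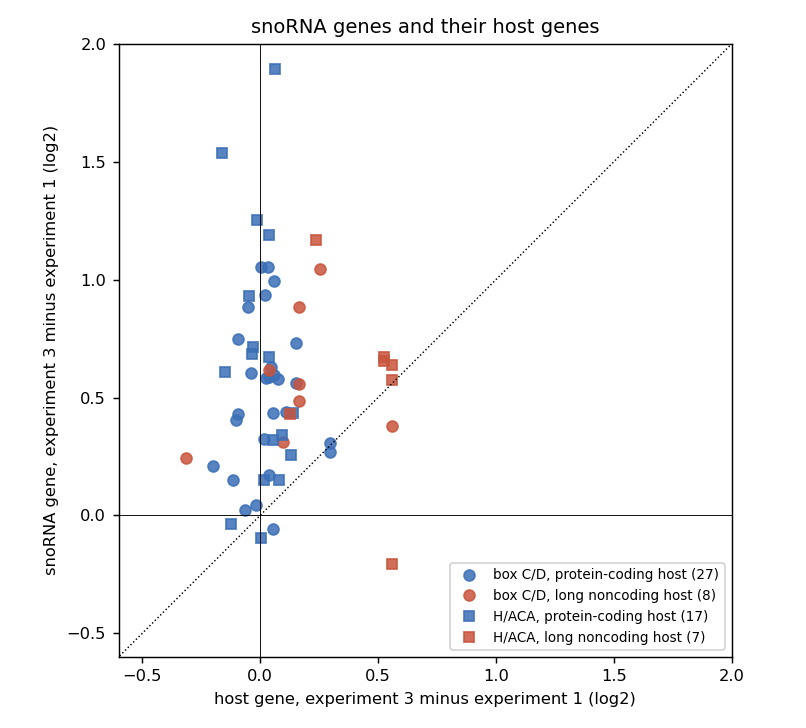
Difference between experiments 3 and 1 (log2) of each host gene (horizontal) and of the snoRNA inside it (vertical) for 59 pairs, by class (shape) and kind of host (colour), with a dotted line where both are equal. Of the pairs 54 lie above the line, and protein-coding hosts cluster near zero while their snoRNAs reach 1.89.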

How the data were processed

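Each deposited value is the log2 level of a probe set after RMA by the authors, per the submitters' processing notes, with no version or probe map named there. RMA gives all arrays 1 distribution of values and hides shifts common to all genes. The number of arrays and the spread between them limit the precision. Groups and experiment numbers came from the labels. All 15 arrays entered 1 fit (limma 3.58.1, R 4.3.3; lmFit and eBayes), without the experiment in the treatment comparisons and with group and experiment in the F test; p-values were adjusted over 15468 genes. Treatment p-values measure the spread between arrays of a group, 1 from each experiment; in the F test and the blocked fits they measure what spread remains once group and experiment are fitted. Same-numbered arrays of different groups had correlated deviations (r from 0.08 to 0.40, 28 of 30 pairs over 0.1), and all 15 arrays correlated best with their own number, so the numbers pair the arrays, as the experiment identifiers state. Named genes were those called, or the 2 smallest p-values of each class where none was, the brightest and dimmest of each class, and members sharing a host. Members, lists and tests were chosen with earlier results of these data known. Hosts came from gene spans in RefSeq, without strand. Scripts were tested on simulated data. Alternatives changed the block, filter, normalization, variance prior, probe set and arrays.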

Additional observations from a re-analysis of the deposited data

How the results depend on the processing

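No snoRNA gene was called for any HDHEA comparison under any of the alternatives run (15 for each treated group and for 13-HDHEA against 16-HDHEA, 21 for the mean of the treated groups), and leaving out each array gave 0 to 0. For LPS the count of called members was 2 with the replicate block, 1 with a filter at the 60th percentile and 1 with each array centred on its median (Snord89 in both), and 0 to 2 when each array was left out. Snora44 and Snord89 were called without replicate 3 of no LPS, Snord88c without its replicate 2, and Snord43 without replicate 3 of LPS with vehicle. For the experiments the count was 26 with the 60th percentile filter, 11 with only the 12 arrays with LPS, 4 without the 3 arrays that stood apart (added after seeing the data) and 9 to 28 when each array was left out. The median difference with 13-HDHEA was 0.03, and 0.16 without replicate 2 and -0.15 without replicate 3 of 13-HDHEA. Of 623 values of named genes under alternatives, 578 kept their side of the threshold and their direction, 39 lost a call, all in the experiment test, 6 gained 1, all in the LPS comparison, and 0 reversed. Snord89 lost its call between experiments in 15 of 24 alternatives (limma adjusted p from 0.00723 to 0.0951). The replicate block changed no other count of called members. Why these counts moved was not tested, beyond fewer genes or arrays in the fit. The 3 arrays in a group and their spread limit detection of small differences.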

Other observations

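Scarna8, a small Cajal body RNA outside the snoRNA symbols, fell by 1.16 on the log2 scale with LPS (limma adjusted p = 0.00110, and 0.00113 with the experiment as a block), and its difference between experiments 3 and 1 was -0.30. Of the 5 tested small Cajal body RNAs it alone was called for LPS.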
